A study of Mus musculus with 2 samples.

Results

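The respiratory chain genes described here were the symbols in the files that begin with Nduf, Sdh followed by a to d, Uqcr, Cox4i to Cox8a or Atp5, and the protein-coding genes of mitochondrial DNA (mt-Nd, mt-Co, mt-Atp, mt-Cytb), with at least 50 unique molecular identifiers (UMIs, one per captured RNA molecule) over both libraries. There were 106 such members among 27998 genes, 11237 of which reached 50 UMIs. Of the members 93 are nuclear-coded and 13 mitochondrially coded. The nuclear-coded members comprised 43 of complex I, 8 of complex II, 8 of complex III, 17 of complex IV and 17 of complex V, and 11 of them are assembly factors (Ndufaf and Sdhaf genes) that help build a complex without staying in it. Ndufa4 and its paralogue Ndufa4l2 were counted with complex IV, in which the Ndufa4 protein sits. Of 107 matching symbols, Cox7b2 had 0 UMIs and stayed outside. The members with the fewest UMIs were Ndufa4l2 with 99, Ndufaf6 with 110, Sdhaf1 with 115, Atp5s with 268 and mt-Nd6 with 328.

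The cells were leukocytes sorted for the surface protein CD45 from MC38-GFP tumours, a mouse adenocarcinoma line marked with green fluorescent protein, grown in C57BL/6 mice. In both groups 50000 tumour cells had been placed under the skin of the right shoulder region, and anti-PD-1 antibody, which blocks an inhibitory receptor of T cells, had been given at a sub-optimal dose (100 ug on days 12, 15, 18 and 22). The responder group and the non-responder group, named for the outcome of that treatment, each gave 1 single-cell library from 1 cell suspension. The labels give no number of mice, no age and no untreated group, so there was no replicate check: each difference is between these 2 libraries, and 95% intervals in brackets cover counting error only.

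The respiratory chain moves electrons from NADH (complex I) and succinate (complex II) through ubiquinone to complex III, then through cytochrome c to oxygen at complex IV, and the ATP synthase (complex V) uses the proton gradient so formed. Complex II is coded wholly in the nucleus, whereas the other complexes join nuclear-coded subunits with a few core subunits made from mitochondrial DNA. In macrophages the balance between this pathway and glycolysis is known to shift with activation and with oxygen supply, and succinate dehydrogenase (complex II) is a known branch point of that shift.

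The responder library held 4425 cell barcodes with 45866561 UMIs and the non-responder library 2580 with 32032569; 14 barcode sequences occurred in both. After cells with under 500 genes (4) or over 10% mitochondrial UMIs (60) had been left out, 4376 and 2565 cells remained, with medians of 10043 and 11752 UMIs. Because the second filter acts on the mitochondrially coded members themselves, it caps their level per cell. Macrophage-like cells made up 93.7% [93.0 to 94.4] of responder and 84.4% [82.9 to 85.8] of non-responder cells, and T cell-like cells 1.90% and 1.60%. The macrophage-like class consisted of different clusters in each library: responder cells were mostly in clusters 8, 6, 11 and 15, and non-responder cells mostly in clusters 1, 4, 3 and 2. A cluster found almost wholly in 1 library may be that library and not a cell state. Clusters 3, 6 and 15 alone held at least 20 cells of each. Levels are given as CPM, UMI counts scaled to the same total for every class (the share of all UMIs of a class), so a lower CPM does not show fewer molecules per cell. UMIs mark 3′ ends and were not divided by gene length.

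In macrophage-like cells the summed respiratory chain RNA was nearly equal in both libraries. The nuclear-coded members summed to 26757 CPM in the responder library and 27080 in the non-responder library, a log2 ratio (responder over non-responder, as in all library comparisons) of -0.02 [-0.02 to -0.01]. The 13 mitochondrially coded members summed to 21999 and 22643 CPM, a log2 ratio of -0.04 [-0.05 to -0.04]. By complex, the nuclear-coded log2 ratios were -0.02 for complex I (8097 and 8194 CPM), 0.03 for complex II (807 and 792), -0.07 for complex III (2606 and 2730), 0.05 for complex IV (7811 and 7563) and -0.07 for complex V (7435 and 7799). The mitochondrially coded subunits lay at 0.01 for complex I, -0.03 for complex IV and -0.07 for complexes III and V. These differences are smaller than the choice of scaling. The median log2 ratio of all 10795 genes compared was -0.09, and trimmed-mean (TMM) scaling added 0.12 to every ratio, which turned the nuclear sum to 0.10 and the mitochondrial sum to 0.08.

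**Figure D1:**
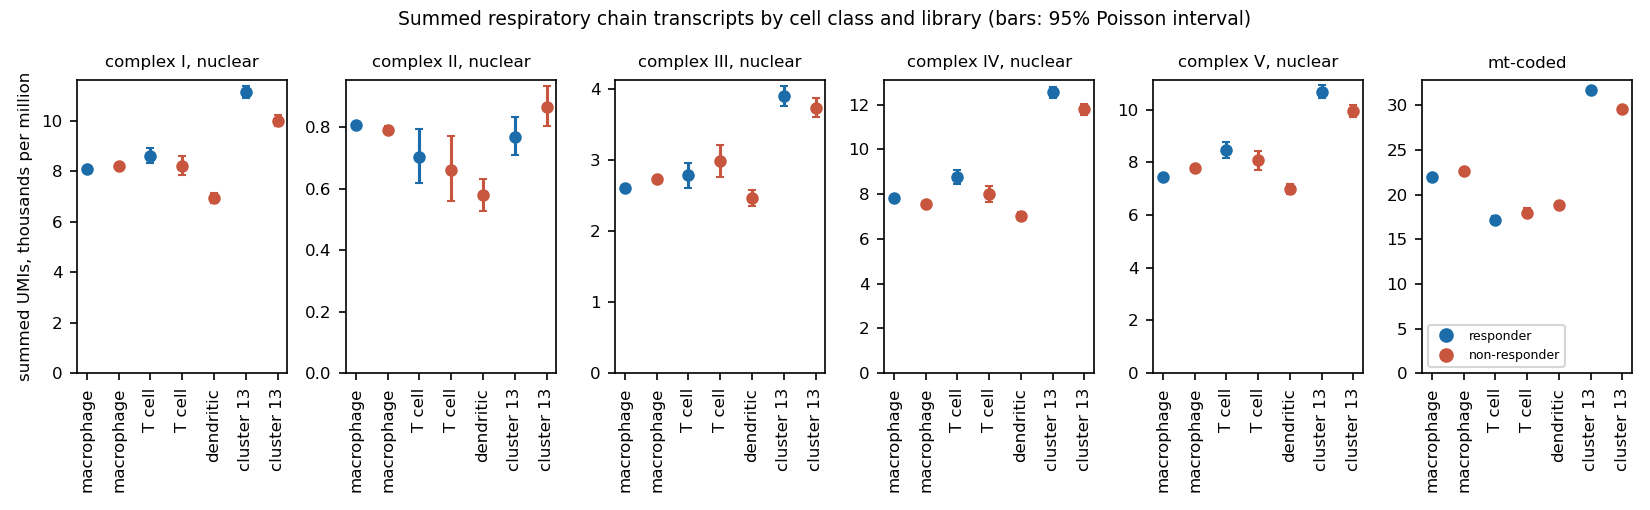
Summed level of the nuclear-coded members of each complex and of the mitochondrially coded members (y axis, CPM divided by 1000) in macrophage-like, T cell-like and dendritic-like cells and cluster 13, 1 point per class and library, with bars for exact Poisson 95% intervals. The macrophage-like points of both libraries are close, such as 8097 and 8194 CPM for complex I, while T cell-like cells have less mitochondrially coded RNA, 17149 and 17990 CPM.

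Among the 105 members with at least 50 UMIs in macrophage-like cells (all but Ndufa4l2), 2 were more than 1.5-fold higher in the responder library, where 8.35% of all genes passed that fold, and 3 were lower, where 11.3% of all genes did. The median member was at -0.04 and 38 of 105 were above 0, where the median of all genes compared was -0.09. Counts above 0, here and for complex I below, stand without the share of all genes above 0. They show no trait particular to the members. The 5 genes past the fold were Cox4i2 and Uqcrfs1, higher in the responder library, and Cox6b2, Ndufa4 and Atp5s, lower. None of the members of complexes I and II and none of the mitochondrially coded members were among them. All 5 kept their direction under the 12 other settings in which each was recomputed. Those settings largely reuse the same cells, and within cluster 3 Cox6b2 and Atp5s had the other direction, at 0.08 and 1.25. The count of 2 higher depended on the setting: it was 4 with TMM scaling, 4 without the dividing clusters, 6 with cells thinned to 3000 UMIs and 8 with equal weight for the shared clusters. The count of 3 lower was 1 among members of at least 500 UMIs and 5 without clusters 6, 8 and 10.

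**Figure D2:**
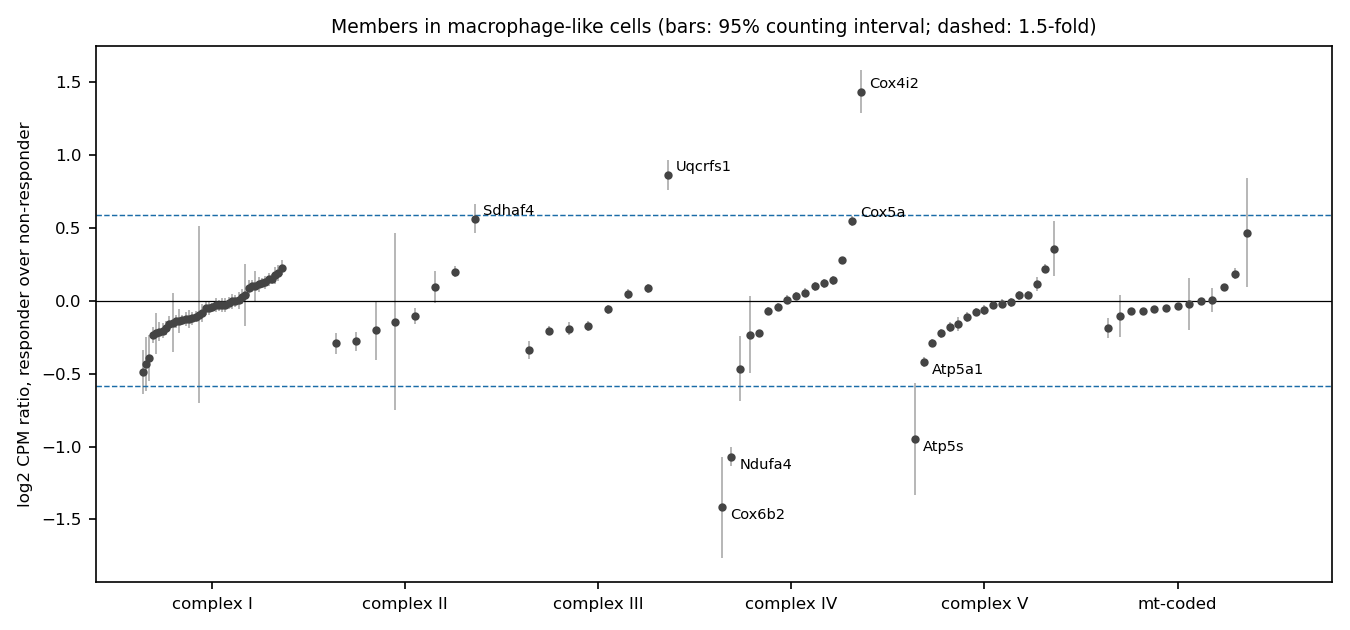
Log2 ratio of CPM in macrophage-like cells, responder over non-responder, for each member with at least 50 UMIs there, grouped by complex and sorted, with bars for 95% counting intervals and dashed lines at 1.5-fold. Most members lie near 0; Cox4i2 at 1.43 and Cox6b2 at -1.41 are the extremes, both in complex IV.

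Complex IV held the 3 widest differences among the members compared, in the isoform genes Cox4i2 and Cox6b2 and in Ndufa4. Cox4i2 (GRCm38 chr2:152754173-152765037, plus strand) codes for the isoform of subunit 4 that is known from lung and from cells at low oxygen. Its level was 44.6 CPM in responder and 16.5 CPM in non-responder cells (1906 and 458 UMIs), a log2 ratio of 1.43 [1.29 to 1.58]. Its common partner Cox4i1 was at 1125 and 1310 CPM, a log2 ratio of -0.22 [-0.24 to -0.20]. Ndufa4 (chr6:11900292-11907497, minus strand), a subunit found in complex IV of most tissues, was at 78.6 and 165 CPM, a log2 ratio of -1.07 [-1.14 to -1.01]. Cox6b2, the testis isoform of Cox6b1, was low in both libraries, at 2.60 and 6.93 CPM, with a log2 ratio of -1.41 [-1.76 to -1.07]. Cox7a1, the muscle isoform of subunit 7a, was likewise low at 8.15 and 11.3 CPM (-0.47 [-0.69 to -0.24]). Its direction was not stable: within the shared clusters 3, 6 and 15 it was at 0.74, 1.71 and -0.05. Over the other settings Cox7a1 ranged from -0.72 to 0.80.

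Cox5a and Cox8a, nuclear-coded subunits of complex IV, were higher in the responder library, with Cox5a (chr9:57521274-57532426, plus strand) at 556 against 381 CPM, a log2 ratio of 0.55 [0.51 to 0.58], and Cox8a at 1171 against 964, a log2 ratio of 0.28 [0.26 to 0.30]. The remaining common subunits lay closer to 0, with Cox7a2 at 0.14, Cox5b at 0.10, Cox6a1 at 0.06, Cox6b1 at 0.03, Cox7b at 0.01, Cox7c at -0.04 and Cox6c at -0.07. Counts of Cox5a may include a neighbour, since the overlapping gene Gm26631 on the other strand shares its last bases.

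In complex III the Rieske iron-sulfur protein gene Uqcrfs1 (chr13:30540308-30545362, minus strand) was at 64.9 CPM in responder and 35.7 CPM in non-responder cells, a log2 ratio of 0.86 [0.76 to 0.97]. The other 7 members of complex III lay between -0.34 and 0.08, from the core protein gene Uqcrc2 (113 against 143 CPM) to the hinge protein gene Uqcrh (546 against 515).

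The subunits of complex II did not share a direction in the class as a whole. Sdhb (chr4:140961203-140979193, plus strand), the iron-sulfur subunit, was at 349 against 304 CPM (0.20 [0.16 to 0.24]), and Sdhaf4, an assembly factor of the catalytic subunit, at 63.7 against 43.2 (0.56 [0.46 to 0.66]). The catalytic flavoprotein gene Sdha was at 79.8 against 97.8 CPM (-0.29 [-0.37 to -0.22]), and the membrane anchors Sdhc and Sdhd were at -0.28 [-0.34 to -0.21] and -0.10 [-0.16 to -0.05]. Within clusters 3, 6 and 15, which both libraries shared, Sdha was at -0.26, -0.46 and -0.51 and Sdhaf4 at 0.89, 1.45 and 0.35, each with the direction of the class. The other 3 did not have that direction in every cluster: Sdhb was at -0.19, 0.32 and 0.21, Sdhc at -0.67, 0.12 and 0.21 and Sdhd at 0.04, 0.04 and 0.23. Over the other settings Sdhd ranged from -0.17 to 0.11.

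The 43 members of complex I lay between -0.49 and 0.23, and 14 of them were above 0. The acyl carrier protein gene Ndufab1, at 186 against 159 CPM, was the highest (0.23 [0.17 to 0.28]), followed by the core iron-sulfur subunit gene Ndufs7 at 185 against 162 (0.19 [0.14 to 0.24]). The lowest were the assembly factor genes Ndufaf4 (-0.49 [-0.64 to -0.33]) and Ndufaf7 (-0.44 [-0.62 to -0.25]) and Ndufs1, the largest core subunit gene, at 16.9 against 22.2 CPM (-0.39 [-0.55 to -0.23]). Within the shared clusters 3, 6 and 15 only Ndufab1 of these genes kept its direction (0.57, 0.66 and 0.41). Ndufs1 was at -1.89, -0.15 and 1.51 there, and ranged from -0.48 to 0.02 over the other settings. The supernumerary subunits with the most RNA, Ndufa2 and Ndufa13, were at -0.04 and 0.15.

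In complex V the catalytic subunit genes were lower in the responder library, and the peripheral stalk subunit genes did not share a direction. Atp5a1, which codes for the alpha subunit, was at 300.5 against 402.0 CPM (-0.42 [-0.46 to -0.38]), and Atp5b, the beta subunit, at 592 against 723 (-0.29 [-0.31 to -0.26]). Over the other settings Atp5a1 ranged from -0.53 to -0.03. Atp5j, coupling factor 6 of the peripheral stalk, was at 572 against 491 (0.22 [0.19 to 0.25]). The other stalk genes Atp5f1, Atp5o and Atp5h were at -0.18, -0.11 and 0.04. The 3 genes of the c-ring, Atp5g1, Atp5g2 and Atp5g3, which code for the same mature protein, were at -0.02, -0.08 and -0.16. Atp5s and Atp5sl match by symbol but are not subunits; Atp5s was near the limit of detection at 2.43 against 4.69 CPM (-0.95 [-1.33 to -0.56]), and Atp5sl was at 16.5 against 12.9 (0.36 [0.17 to 0.55]).

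Of the mitochondrially coded members, mt-Nd2 (363 against 319 CPM, 0.19 [0.15 to 0.22]) and mt-Nd4 (1022 against 956, 0.10 [0.07 to 0.12]), both of complex I, were above 0, and mt-Nd5 was at 87.5 against 99.7 CPM (-0.19 [-0.26 to -0.12]). mt-Nd6, which lies on the other strand of mitochondrial DNA, was at 4.47 against 3.25 CPM (0.46 [0.09 to 0.84]). The other 9 lay between -0.10 and 0.01.

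The differences of Cox4i2, Ndufa4 and Cox5a could be compared within clusters that both libraries shared. In clusters 3, 6 and 15 the log2 ratios of Cox4i2 were 1.88 [1.28 to 2.45], 0.84 [-0.01 to 1.85] and 1.85 [0.62 to 3.49], with 138, 11 and 5 UMIs in the non-responder library. Those of Ndufa4 were -0.47 [-1.40 to 0.32], -1.04 [-1.56 to -0.48] and -0.67 [-1.05 to -0.27]. Those of Cox5a were 0.67 [0.39 to 0.94], 0.97 [0.61 to 1.36] and 0.37 [0.17 to 0.57]. Each of the 3 genes thus had 1 direction in all 3 clusters, although the interval reached 0 for Cox4i2 in cluster 6 and for Ndufa4 in cluster 3. Uqcrfs1 was at 0.66 [-0.33 to 1.51], 0.45 [-0.41 to 1.46] and 1.07 [0.36 to 1.88], also 1 direction. The other 2 genes past the fold did not keep 1 direction: Cox6b2 was at 0.08, -1.44 and -1.08 and Atp5s at 1.25, -1.10 and -0.75, and Atp5a1 was at -0.26, 0.40 and -0.21. Among the 83, 84 and 86 members with a mean of at least 50 CPM in the cells compared, which leaves out low members such as Cox4i2 in cluster 15, 3, 7 and 2 passed 1.5-fold higher in clusters 3, 6 and 15, where 8.76%, 7.41% and 7.3% of genes did, and 4, 2 and 1 passed it lower, where 10.7%, 8.23% and 11.8% did. Clusters 6 and 15 held 28 and 30 non-responder cells and cluster 3 held 30 responder cells.

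The isoform genes varied among macrophage clusters as well. Cox4i2 ranged in the responder library from 17.2 CPM in cluster 8 (led by Gbp2b and Ccl8) to 81.2 in cluster 10 (led by Mmp13, Thbs1 and Arg1) and 119 in cluster 3 (led by Mmp12, Adm and Hilpda). In the non-responder library it ranged from 10.3 CPM in cluster 1 (led by Gpr34, with Fcrls) to 32.2 in cluster 3 and 43.0 in cluster 6, the last from 11 UMIs. Cox4i2 made up 11.03% [7.67 to 15.2] of the UMIs of both subunit 4 genes in responder cluster 3, against 1.44% [1.24 to 1.66] in cluster 8. In non-responder cells it made up 2.66% [2.24 to 3.14] in cluster 3 and 0.746% [0.607 to 0.908] in cluster 1. T cell-like cells had 1 Cox4i2 UMI in the responder library and 0 in the non-responder library. With that 0 set to 3 counts, or 12.7 CPM, macrophage-like cells were 1.30-fold higher in the non-responder library. The 3 counts are a set value and not an upper limit, so this fold is no lower bound. In the responder library the T cell log2 ratio was -3.99 [-9.30 to -1.51]. The other tissue isoforms were scarce in every macrophage cluster: Cox7a1 lay between 5.25 CPM in responder cluster 8 and 17.7 CPM in non-responder cluster 2 over clusters with at least 50 cells, Cox6a2 between 2.32 CPM in responder cluster 11 and 12.6 CPM in non-responder cluster 3, and Cox6b2 between 1.44 CPM in responder cluster 6 and 8.85 CPM in non-responder cluster 1.

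Ndufa4 followed another order. In the responder library it went from 48.2 CPM in cluster 3 and 53.9 in cluster 10 to 92.5 in cluster 7, which carried genes of DNA replication, and 99.5 in cluster 8. In the non-responder library it went from 66.9 CPM in cluster 3 to 198 in cluster 1 and 199.9 in the dividing cluster 4. Its paralogue Ndufa4l2 had 2 and 24 UMIs in the macrophage-like cells of the responder and non-responder library. AA467197, the mouse counterpart of C15orf48, codes for a small protein related to Ndufa4 that can take its place in complex IV. It was no member and was looked up after the values of Ndufa4 had been seen. In macrophage-like cells it was at 1198 and 840.5 CPM (responder, then non-responder), the opposite order to Ndufa4. Within the responder library it was at 2061 CPM in cluster 11, 1843 in cluster 10, 1700.5 in cluster 3 and 446 in cluster 8. Within the non-responder library it was at 1484 CPM in cluster 2, 989.8 in cluster 3, 730.5 in cluster 4 and 480.1 in cluster 1. T cell-like cells had 339 and 372 CPM of AA467197 and 302 and 216 CPM of Ndufa4.

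**Figure D3:**
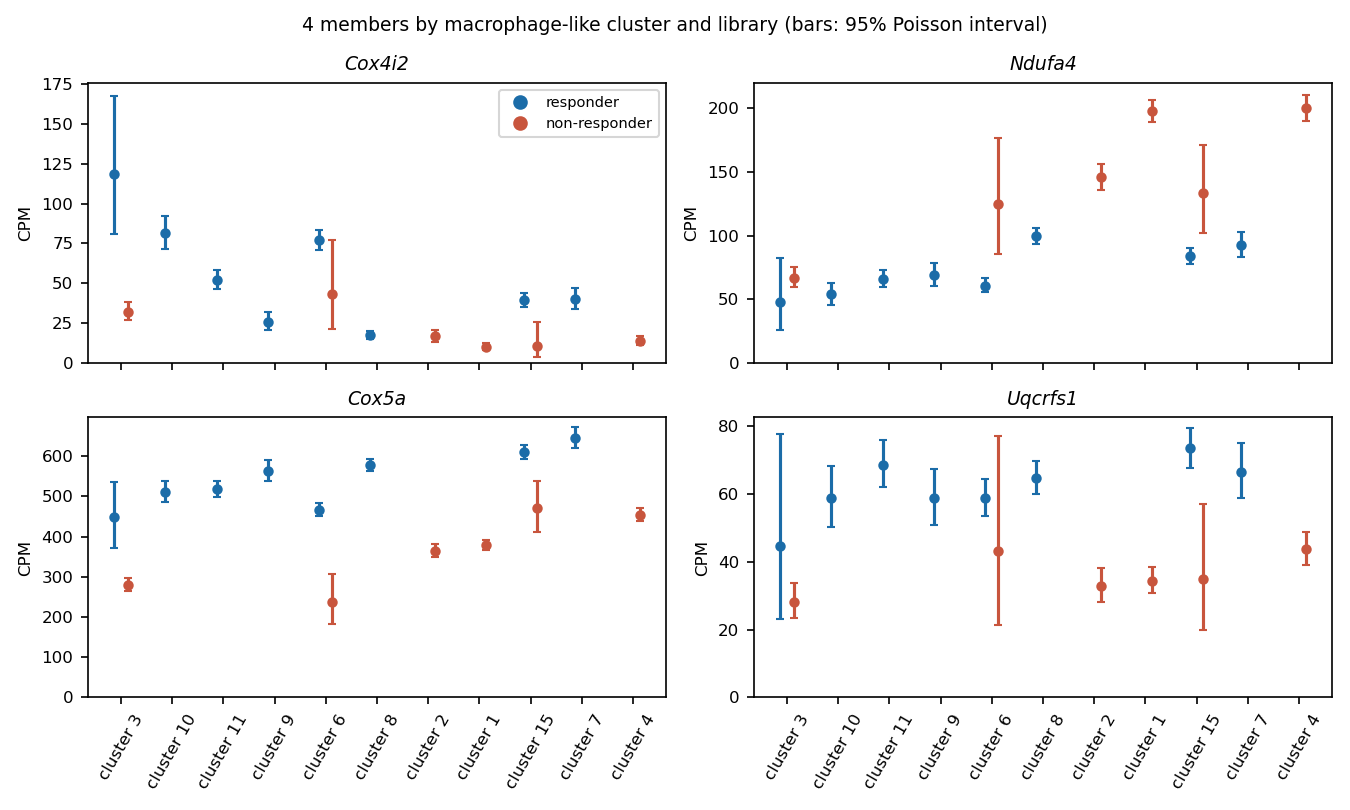
CPM of Cox4i2, Ndufa4, Cox5a and Uqcrfs1 (y axes from 0) in each macrophage-like cluster with at least 20 cells of a library, responder and non-responder side by side, with bars for exact Poisson 95% intervals. Cox4i2 is highest in responder cluster 3 at 119 CPM, and Ndufa4 is lowest in cluster 3 of both libraries, at 48.2 and 66.9 CPM.

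Promoter windows of some genes of these comparisons are shown to give their context (Cox4i2 was not matched): Uqcrfs1, Cox5a and Ndufa4 for the library differences, Sdhb and Uqcrh for the cluster and lineage differences below, and Cox6a1 as a member with several motif matches. Each is the 250 bases before the RefSeq transcription start on GRCm38.p6, read 5′ to 3′ on the gene's strand, and capitals mark motif matches.
Uqcrfs1 (chr13:30545317-30545566, minus strand): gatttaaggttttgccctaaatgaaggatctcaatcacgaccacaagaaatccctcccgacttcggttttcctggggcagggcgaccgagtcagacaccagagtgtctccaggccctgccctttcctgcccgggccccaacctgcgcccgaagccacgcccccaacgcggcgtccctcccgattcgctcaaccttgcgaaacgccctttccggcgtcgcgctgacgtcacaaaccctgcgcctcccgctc
Cox5a (chr9:57520982-57521231, plus strand): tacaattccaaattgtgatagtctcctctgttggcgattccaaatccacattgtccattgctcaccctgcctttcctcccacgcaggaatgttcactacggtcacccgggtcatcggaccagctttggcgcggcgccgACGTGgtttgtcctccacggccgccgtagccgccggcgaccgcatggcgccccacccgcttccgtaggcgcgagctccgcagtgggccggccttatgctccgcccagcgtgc
Ndufa4 (chr6:11907451-11907700, minus strand): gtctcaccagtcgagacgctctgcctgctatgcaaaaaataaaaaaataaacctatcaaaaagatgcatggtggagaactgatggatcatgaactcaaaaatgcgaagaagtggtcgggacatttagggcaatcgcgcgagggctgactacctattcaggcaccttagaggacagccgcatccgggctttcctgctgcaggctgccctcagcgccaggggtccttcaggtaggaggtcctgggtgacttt
Sdhb (chr4:140961021-140961270, plus strand): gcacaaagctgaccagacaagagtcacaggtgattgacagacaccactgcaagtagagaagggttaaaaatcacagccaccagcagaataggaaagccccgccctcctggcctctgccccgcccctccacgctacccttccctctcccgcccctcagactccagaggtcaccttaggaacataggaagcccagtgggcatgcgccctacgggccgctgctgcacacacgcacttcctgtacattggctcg
Uqcrh (chr4:116075071-116075320, minus strand): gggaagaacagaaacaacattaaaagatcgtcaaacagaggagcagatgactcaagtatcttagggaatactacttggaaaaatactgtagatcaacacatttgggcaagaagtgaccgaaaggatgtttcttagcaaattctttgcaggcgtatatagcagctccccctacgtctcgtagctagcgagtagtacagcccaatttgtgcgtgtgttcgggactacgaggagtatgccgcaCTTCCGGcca
Cox6a1 (chr5:115348959-115349208, minus strand): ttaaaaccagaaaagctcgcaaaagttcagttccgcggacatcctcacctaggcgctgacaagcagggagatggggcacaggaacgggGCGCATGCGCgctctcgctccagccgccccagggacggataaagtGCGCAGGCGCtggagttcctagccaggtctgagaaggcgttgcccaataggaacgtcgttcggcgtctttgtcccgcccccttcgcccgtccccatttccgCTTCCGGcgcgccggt

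Cox6a1 holds the core of the site of nuclear respiratory factor NRF1, GCGCA and GCGC with any base between, at -162 to -153 and -117 to -108 from the start, and the reverse strand of CCGGAAG, an ETS family core that NRF2 (GABP) binds, at -16 to -10. Uqcrh holds that ETS core at -10 to -4, and Cox5a holds ACGTG, the core of the hypoxia-inducible factor (HIF) element, at -112 to -108. Windows were found for 78 of the 93 nuclear-coded members, and both strands were searched. The NRF1 core was in 13 of 78 members (16.7%), against 3.86% of all 27025 promoter windows, and the ETS core in 14 (17.9%), against 7.05%. The members with the NRF1 core were Ndufa5, Ndufa8, Ndufa11, Ndufaf4, Ndufb4, Ndufs5, Ndufs6, Sdha, Sdhd, Cox6a1, Atp5g2, Atp5h and Atp5k, and Sdhd, Cox6a1 and Atp5h held both cores. The HIF core was in 17 members (21.8%, against 16.6%), the receptor half-site AAGGTCA of ESRRA in 5 (6.41%, against 4.05%) and the interferon element (GAAA, NN, GAAA) in 2 (2.56%, against 3.04%). A match describes letters and shows no binding.

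T cell-like cells differed from macrophage-like cells in the balance of nuclear-coded and mitochondrially coded RNA. In both libraries they had more nuclear-coded and less mitochondrially coded member RNA as a share of all UMIs, although the nuclear-coded excess of the non-responder library was lost at clustering resolution 0.5 (a log2 ratio of -0.00492). Without mt- and ribosomal protein genes in the total the nuclear-coded ratios below became 0.288 and 0.281 and the mitochondrially coded ones -0.203 and -0.096 (responder, then non-responder). The nuclear-coded sum was 29323 CPM in T cell-like and 26757 in macrophage-like cells of the responder library, a log2 ratio (T cell over macrophage) of 0.13 [0.10 to 0.16], and 27930 against 27080 in the non-responder library, 0.04 [0.01 to 0.08]. The mitochondrially coded sum was 17149 against 21999 CPM (-0.36 [-0.40 to -0.32]) and 17990 against 22643 (-0.33 [-0.38 to -0.29]). mt-Atp6, the proton channel subunit of the ATP synthase, was at 4079 and 4291 CPM in T cell-like cells against 5988 and 6295, a log2 ratio of -0.55 in both libraries. Of the nuclear-coded complexes, complex II was lower in T cell-like cells, at -0.20 [-0.39 to -0.02] and -0.26 [-0.50 to -0.04], while complexes III (0.09 and 0.13) and IV (0.16 [0.11 to 0.22] and 0.08 [0.01 to 0.15]) were higher. The excess of complex III came from the single gene Uqcrh, as given below. Complex V was at 0.19 [0.14 to 0.24] and 0.05 [-0.02 to 0.12] and complex I at 0.09 [0.04 to 0.14] and 0.00 [-0.06 to 0.07], so their intervals reached 0 in the non-responder library.

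The T cell-like values rest on 83 and 41 cells with medians of 3692 and 4920 UMIs. The class was made of different cells in each library. Cluster L7 (led by Cxcr6, Nkg7 and Ifng) gave 59 responder and 0 non-responder cells. Cluster L5 (led by Penk and Tnfrsf4, with Foxp3) gave 2 and 19, and L4 (led by Xcl1 and Cd3g) gave 22 of each. The part of this mix in the ratios was not tested. RNA of macrophages was present among the T cell-like cells. The 14 macrophage markers summed to 3707 and 1497 CPM in T cell-like cells, 7.53% and 3.04% of their level in macrophage-like cells, with 0 of 14 at 0 in the responder and 1 of 14 (Mrc1) at 0 in the non-responder library. The part of that RNA in the differences was not tested.

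Of 86 members with a mean of at least 50 CPM, 3 were more than 1.5-fold higher in T cell-like cells in both libraries, against 20.8% of all genes compared, and 1 was lower, against 17.9%. Uqcrh, the hinge protein of complex III, was at 986 and 1251 CPM in T cell-like cells against 546 and 515, log2 ratios of 0.85 [0.70 to 1.005] and 1.28 [1.11 to 1.45]. Complex III as a whole was at 2783 and 2981 CPM against 2606 and 2730, a smaller gap than that of Uqcrh alone. The other members of complex III together were thus lower in T cell-like cells of both libraries. Ndufb7, a complex I subunit, was at 0.88 and 0.69, and Atp5d, the delta subunit of the ATP synthase, at 0.79 and 0.71. Sdhc, a membrane anchor of complex II, was lower at -1.36 [-2.23 to -0.61] and -0.60 [-1.34 to 0.04], from 14 and 19 UMIs. The subunits of complex II did not share a direction: Sdha was at 0.52 and 0.51, whereas Sdhb was at -0.28 and -0.58 and Sdhd at -0.35 and -0.65. Other members low in both were Ndufc2 (-0.75 and -0.50), Uqcr11 (-0.58 and -0.55), Ndufa12 (-0.48 in both) and Atp5g1 (-0.43 and -0.68). Below that level of expression, the complex I assembly factor gene Ndufaf1 (7 and 8 UMIs) was at 0.77 and 1.41 and Atp5s (4 and 4 UMIs) at 2.20 and 1.85. Of the 10 mitochondrially coded members compared, 9 were below 0 in both libraries and 0 above. That count stands without the share of all genes below 0, so it shows no trait particular to these members. Ndufa4 was at 1.94 [1.65 to 2.22] in the responder library and 0.39 [-0.04 to 0.78] in the non-responder library, where macrophage-like cells had more of it.

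Outside these classes, dendritic-like cells of the non-responder library (81 cells) had less of every complex than macrophage-like cells, with a nuclear-coded sum of 23985 CPM (-0.18 [-0.20 to -0.15]) and complex II at -0.46 [-0.59 to -0.32]. Their cluster was named for its leading genes Ccl17, Ccl22, Ccr7 and Cd209a. In it 4 of 10 dendritic markers and 11 of 14 macrophage markers counted. The 11 responder cells had complex II at 747 CPM [577 to 952], an interval that held the 807 of macrophage-like cells. Cluster 13 (22 responder and 20 non-responder cells) was led by genes that included the fibroblast markers Dcn, Col3a1 and Sparc, beside Rhox5, Tm4sf1 and Phgdh. Only 3 of the 7 listed fibroblast markers counted there, so its cell type was not settled. A CD45 sort should remove fibroblasts. Cluster 13 had the highest sums. They were 39052 and 36346 CPM for nuclear-coded and 31688 and 29552 for mitochondrially coded members, at medians of 29277 and 32118.5 UMIs per cell. Cox6a2, the heart and muscle isoform of subunit 6a, made up 11.4% [8.85 to 14.4] and 12.6% [10.2 to 15.4] of both subunit 6a genes in cluster 13, against 1.19% and 1.45% in macrophage-like cells.

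Among macrophage states, 1 cluster had the lowest member RNA in both libraries. Cluster 3, led by Mmp12, Adm, Gpnmb, Hmox1 and Hilpda, held 406 non-responder and 30 responder cells. Its nuclear-coded sum was 22021 CPM in the non-responder and 21780 CPM in the responder library, and its mitochondrially coded sum 15889 and 13293 CPM. Over clusters with at least 50 cells, the nuclear-coded sum ranged in the non-responder library from that 22021 CPM to 29888 in the dividing cluster 4, a log2 spread of 0.44, and the mitochondrially coded sum up to 24876, a spread of 0.65. In the responder library, whose 7 such clusters do not include cluster 3, the nuclear-coded sum ranged from 24582 CPM in cluster 10 to 29502 in cluster 7 (a spread of 0.26) and the mitochondrially coded sum from 16944 in cluster 11 to 24443 in cluster 15 (0.53). Cluster 11 is led by the monocyte-type genes Ly6i and Ly6c2. The members had been left out of the genes used for clustering.

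**Figure D4:**
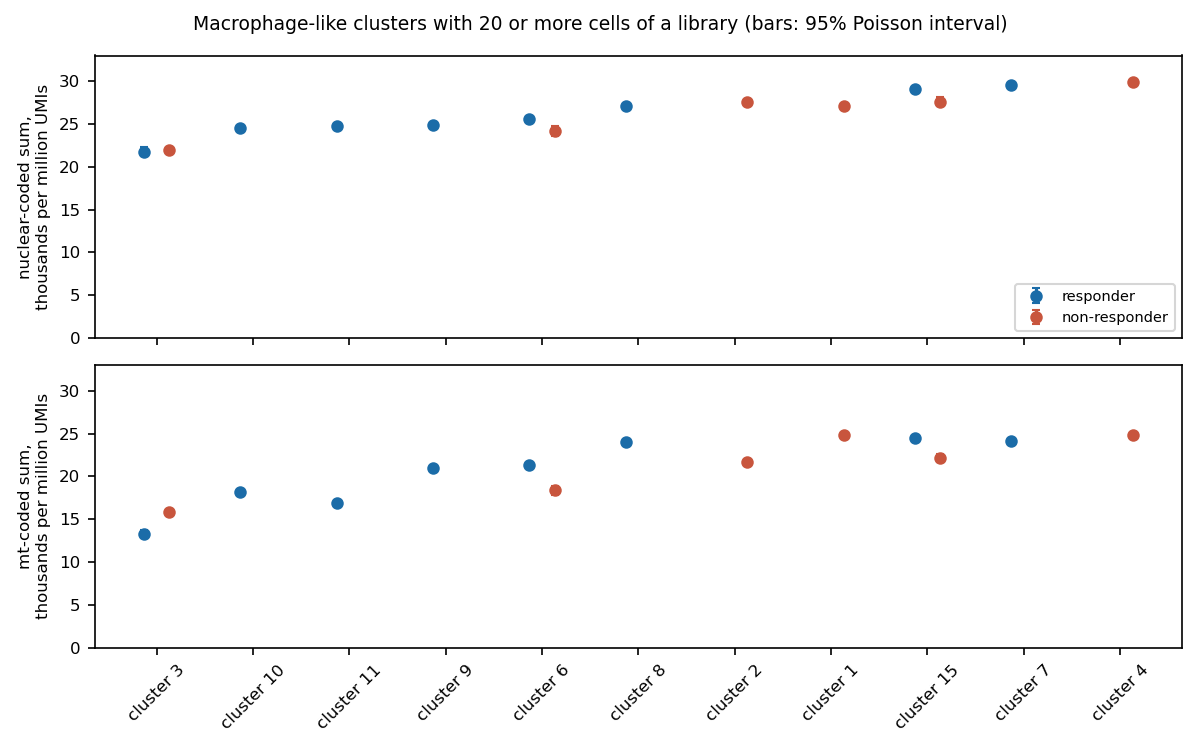
Summed CPM of nuclear-coded and of mitochondrially coded members in each macrophage-like cluster, responder and non-responder, with exact Poisson 95% intervals. Cluster 3 is lowest in both libraries for both sums, and the dividing clusters 4 and 15 and the S-phase cluster 7 are near the top.

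In cluster 3 the complexes were not lowered alike. Against the other macrophage-like cells of the same library, the log2 ratios of nuclear-coded complexes I to V were -0.45, -0.75, -0.26, -0.20 and -0.38 in the non-responder and -0.34, -0.82, -0.24, -0.23 and -0.30 in the responder library, so complex II was the lowest in both. The mitochondrially coded subunits of complex I were at 1499 against 3959 CPM (-1.40 [-1.44 to -1.37]) and 1486 against 3604 (-1.28 [-1.42 to -1.14]). Those of complex IV were at -0.29 [-0.31 to -0.27] and -0.43 [-0.49 to -0.36]. Of 83 members with a mean of at least 50 CPM in the non-responder library, 33 were more than 1.5-fold lower in cluster 3, against 27.1% of all genes, and 0 were higher, against 9.52%. In the responder library 25 of 85 were lower, close to the share of all genes (26.7%), and 2 (Cox4i2 and Ndufv3) were higher, against 11.4%. The median member was at -0.51 and -0.44, where the median of all genes was -0.25 and -0.17.

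mt-Nd1, a core membrane subunit of complex I, had the widest difference of the mitochondrially coded members, at 692 against 2361 CPM among non-responder cells (-1.77 [-1.82 to -1.72]) and 689 against 2027 among responder cells (-1.56 [-1.77 to -1.35]). mt-Nd4, another membrane subunit, was at -1.10 and -1.17, and mt-Cytb, the cytochrome b of complex III, at 995 against 2045 (-1.04) and at -1.21. mt-Atp6 was at -0.66 and -0.96 and mt-Co2 at -0.88 and -0.87. In contrast, mt-Co1, the catalytic subunit of complex IV, was at 4856 against 4359 CPM (0.16 [0.13 to 0.18]) in the non-responder and 4046 against 4281 (-0.08 [-0.17 to 0.00]) in the responder library, and mt-Nd5 was at -0.08 and -0.24. The mitochondrially coded RNAs, which derive from long shared transcripts, thus differed from each other within 1 cluster.

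The share of complex I genes (mt-Nd) in all mitochondrially coded UMIs showed the same. It was 9.43% [9.21 to 9.65] in non-responder and 11.2% [10.2 to 12.3] in responder cluster 3, against 16.6% and 16.3% in the other macrophage-like cells. For single cells, over cells with at least 100 such UMIs, the median share was 8.76% in 290 non-responder and 9.73% in 15 responder cells of cluster 3, against 16.2% and 16.1%. The mt-Co genes had 6.11 and 5.33 UMIs per mt-Nd UMI in cluster 3 and 2.83 and 2.95 elsewhere. Cluster 6 of the non-responder library (28 cells) was also low at 12.9% [11.9 to 13.9]. Cluster 3 cells had a median of 10305 UMIs in the non-responder library, against 12717 in the rest, and a median mitochondrial share of 1.55%, against 2.34%. Their part in the difference was not tested.

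**Figure D5:**
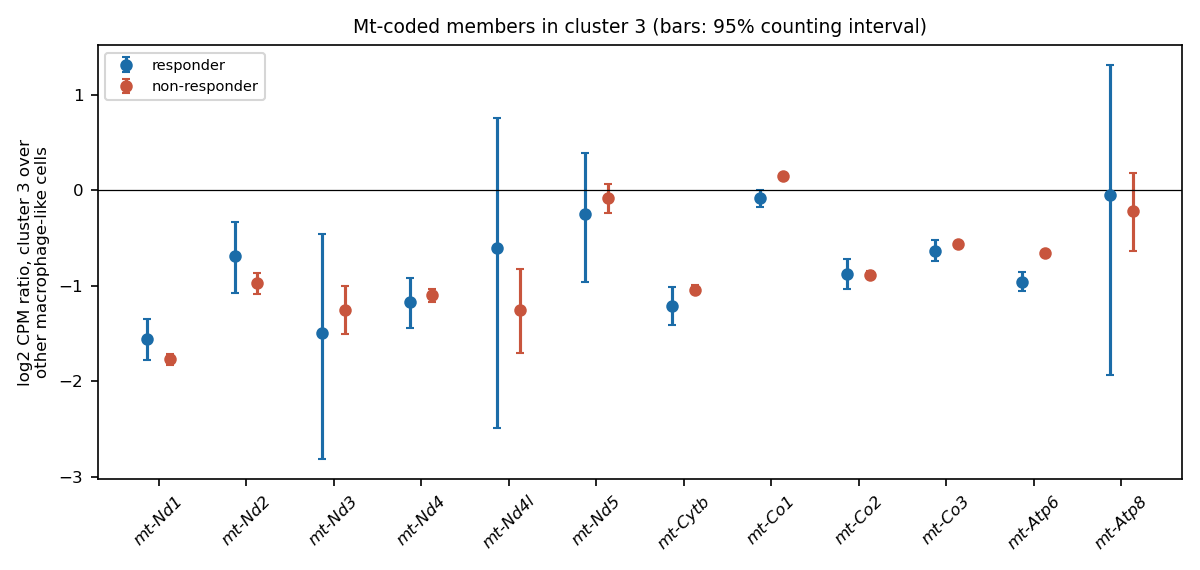
Log2 CPM ratio of each mitochondrially coded member except mt-Nd6 in cluster 3 over the other macrophage-like cells of the same library, with bars for 95% counting intervals. mt-Nd1 lies lowest at -1.77 (non-responder) and -1.56 (responder), and mt-Co1 lies near 0 at 0.16 and -0.08.

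Of the nuclear-coded members, Sdhb was at 136 CPM in cluster 3 against 335 in the non-responder library (-1.31 [-1.43 to -1.18]) and 119 against 351 in the responder library (-1.56 [-2.11 to -1.07]). Sdha was at -0.64 and -0.53, Sdhc at -0.44 and -0.77 and Sdhd at -0.39 and -0.19, so the iron-sulfur subunit was the lowest of complex II. Ndufs7, which carries an iron-sulfur cluster of complex I, was at 85.5 against 176 CPM (-1.04 [-1.20 to -0.89]) and 63.0 against 185 (-1.56 [-2.34 to -0.88]). Ndufaf2, a complex I assembly factor, was at 14.4 against 28.3 CPM (-0.97 [-1.37 to -0.59]) in the non-responder library, and 1 UMI was counted in responder cluster 3 (-2.60 [-7.91 to -0.12]). Ndufa4 was at -1.45 [-1.63 to -1.28] and -0.71 [-1.62 to 0.07], and Atp5a1 at -0.95 and -0.67. Members near or above 0 in both libraries included Cox7a2l, a factor that joins complexes III and IV, at 0.20 and 0.17, and Uqcrh at 0.09 and 0.05. Some members below 50 CPM in the non-responder library went the other way. Cox4i2 was at 1.23 [0.94 to 1.53] and 1.42 [0.87 to 1.93], Cox6a2 at 0.89 [0.42 to 1.34] and 0.77 [-1.51 to 2.34], and Cox7a1 at 0.29 [-0.15 to 0.71] and 1.46 [0.01 to 2.60], the responder values of the last 2 genes from 3 and 6 UMIs. Ndufa4l2 was at 2.45 [1.17 to 3.73] in the non-responder library, from 12 UMIs, and had 0 UMIs in responder cluster 3. In the same cluster 16 of 17 genes of glycolysis and the hypoxia response compared were more than 1.5-fold higher in the non-responder library and 19 of 19 in the responder library. Those genes took part in the clustering and are a description of it: Hilpda was at 809.9 against 62.9 CPM and Slc2a1 at 407 against 83.2 in the non-responder library.

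The dividing clusters 4 and 15 had slightly more RNA of nearly all members than the other macrophage-like cells. The nuclear-coded sum was at 0.15 and 0.19 (responder, then non-responder library) and the mitochondrially coded sum at 0.19 and 0.18. The cells compared with included responder cluster 7, whose nuclear-coded sum of 29502 CPM was above the 29102 of cluster 15. In the non-responder library they included the low cluster 3. The mitochondrially coded sum was nearly as high in some other clusters. It was 24805 CPM in non-responder cluster 1 against 24876 in cluster 4, and 24066 in responder cluster 8 against 24443 in cluster 15. Of 85 and 83 members compared, 75 and 74 were above 0, and 0 and 1 were more than 1.5-fold higher, against 10.1% and 11.1% of all genes. The 1 gene was Ndufab1, at 0.35 and 0.60. In each library 0 members were more than 1.5-fold lower, against 2.57% and 4.19% of all genes. The counts above 0 in this paragraph stand without the share of all genes above 0, so they show no trait particular to the members. Among all genes, too, more passed the fold higher than lower. Each of the 15 members of complex V compared was above 0 in both libraries, led by Atp5o (0.50 and 0.53), a peripheral stalk subunit, and the c-ring gene Atp5g3 (0.42 and 0.58). Those below 0 in both libraries included Cox7a2l (-0.18 and -0.34), Ndufa6 (-0.19 and -0.28), Uqcrh (-0.12 and -0.18) and mt-Co1 (-0.03 and -0.17). mt-Nd1 was above 0, at 0.28 and 0.48.

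Other genes of the pathway were read from fixed lists in macrophage-like cells, responder over non-responder, with the background given above. Of 40 genes for complex assembly and carriers, 2 were more than 1.5-fold higher (the inserter of complex IV subunits Cox18 and the ATP synthase assembly factor Tmem70, at 1.13 and 0.87) and 2 lower (Cox16 at -0.75 and Slc25a4, the adenine nucleotide carrier, at 188 against 289 CPM, -0.63). The uncoupling protein gene Ucp2 was at 905 against 649 CPM (0.48) and the ATP synthase inhibitor gene Atpif1 at 383 against 549 (-0.52). Of 76 genes of the mitochondrial ribosome 2 were higher, Mrps34 at 48.0 against 18.4 CPM (1.39) and Mrps24 at 20.3 against 9.53 (1.09), and 0 lower, with a median of -0.07. Of 19 genes of mitochondrial DNA maintenance and expression, Polg2, an accessory subunit of the mitochondrial DNA polymerase, was higher at 0.96, and the packaging factor Tfam was at -0.20. Of 9 regulators measured, 1 was higher, Ppargc1b at 4.52 against 2.53 CPM (0.84).

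The citric acid cycle, which feeds electrons to the chain, had 0 of 16 genes higher and 4 lower, with a median of -0.35. Idh2 was at 52.3 against 91.1 CPM and Idh3a at 33.7 against 58.6, both isocitrate dehydrogenase genes at -0.80, and Suclg2 and Dlst were at -0.60 and -0.59. Of 20 genes of glycolysis and the hypoxia response 0 were higher and 7 lower, with a median of -0.40. The cluster 3 cells that were rich in these RNAs made up 406 of 2164 macrophage-like cells in the non-responder library and 30 of 4101 in the responder library. The part of these cells in the library ratios of those genes was not tested. In cluster 3, 15 of 44 genes of the mitochondrial ribosome compared were more than 1.5-fold lower in the non-responder library, against 27.1% of all genes, and 20 of 41 in the responder library, against 26.7%, with medians of -0.46 and -0.55.

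In T cell-like cells the copper chaperone gene Cox17 was at 529 CPM against 161 in the responder (1.72) and 342 against 148 in the non-responder library (1.21), and the complex IV assembly genes Cox20 (1.18 and 1.04) and Surf1 (1.21 and 0.97) were also higher than in macrophage-like cells. These 3 were named after their values had been seen, among 19 genes of that list compared, of which 5 were higher and 2 lower by more than 1.5-fold in both libraries, against 20.8% and 17.9% of all genes.

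Some counts may be shared with copies. In GENCODE M21 the last 300 bases of 31 members matched a transcript of another gene with at least 97% identity over at least 90 bases, among them mt-Co1, mt-Co2, mt-Co3, mt-Atp6, mt-Nd3 and mt-Nd4l, which have nuclear pseudogenes, and Cox5a. mt-Nd1, mt-Nd2, mt-Nd4, mt-Cytb, Cox4i2, Ndufa4, Uqcrfs1, Sdhb, Uqcrh and Sdhaf4 had no such copy. Another gene overlapped 31 members on the other strand and 9 on the same strand, and whether the counting used the strand is not given in the sources used here.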

How the data were processed

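CD45+ tumour cells were measured in 2 single-cell libraries, 1 per group. The authors deposited, for each library, UMI counts per gene and barcode as a filtered matrix, with whole numbers throughout; the submitters' processing notes name Cell Ranger and the builds mm10 and GRCm38, and the annotation release is not given in the sources used here. Cells needed 500 genes and at most 10% mitochondrial UMIs. Doublets were not removed and no caller was run. Both libraries were clustered together in scanpy 1.11.5 (10000 per cell, log scale, 2000 variable genes without the members, 30 components, 15 neighbours, Leiden resolution 1.0), with lymphocyte clusters clustered again.

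Classes came from marker lists, and a marker counted at 50 CPM and in 10% of cells. Macrophage-like clusters held 75% of the macrophage markers and T cell-like clusters 50% of theirs. Clusters with both were set aside as mixed (103 responder and 31 non-responder cells). Before the macrophage rule was applied, a cluster with at least 3 dendritic markers among its 10 leading genes was named dendritic-like. Cluster 0 and L3 stayed unnamed because their 10 leading genes went against the name. For macrophage-like clusters this check took leading genes against cells outside the class. Against all other cells, clusters 6, 8 and 10 had 0 leading macrophage markers and some of other cell types (Cd79b and Pecam1, Xcr1, and Il7r). These 3 clusters stayed macrophage-like. These thresholds, the members and the gene lists were chosen with earlier results of these data known.

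Counts were summed per class and library and divided by the class total (CPM), with exact Poisson intervals; log2 ratios have conditional exact binomial intervals, at the 95% level. With 1 library per group no test was made, and a member counted as higher or lower past 1.5-fold, beside the share of all genes past it; lineage and cluster comparisons used genes with a mean of at least 50 CPM. A count of 0 was set to 3 counts. The 54 members named by rule were the 13 mitochondrially coded ones, the 10 highest and 10 lowest nuclear-coded library ratios at 200 or more UMIs, the 5 highest and 5 lowest T cell ratios, the 5 widest cluster spreads, the isoform pairs and the complex II subunits; others were named after their values were seen, as the most abundant, highest or lowest of their complex. TMM factors came from edgeR 4.0.16 (R 4.3.3). The ratio interval and the 1.5-fold call were tried on simulated Poisson counts, which hold no spread between cells or libraries. The other steps were not simulated. Promoter windows came from RefSeq (GRCm38.p6) and coordinates from GENCODE M21, in which all 106 members were found.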

Additional observations from a re-analysis of the deposited data

How the results depend on the processing

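With 1 library per group there is no measure of the spread between animals, and the near-equal macrophage sums depended on the scaling. No paired analysis was possible because each group had 1 library and the labels give no replicate numbers. The log2 ratio of the nuclear-coded sum, responder over non-responder, changed from -0.017 to -0.080 without mt- and ribosomal protein genes in the denominator, -0.00646 as a mean over cells, -0.00451 with cells thinned to 3000 UMIs, 0.103 with TMM scaling, 0.051 with equal weight for the 3 shared clusters, 0.00982 without the dividing clusters and -0.066 at resolution 0.5. In the same order the mitochondrially coded sum went from -0.042 to -0.104, -0.00512, -0.00852, 0.079, 0.066, -0.027 and -0.115, and it was -0.025 without the mitochondrial limit. So the sign of both sums depended on the setting. The count of members more than 1.5-fold higher went from 2 to 6 in thinned cells, 4 with TMM scaling, 8 with equal cluster weight and 4 without the dividing clusters, and the count lower from 3 to 1 among members of at least 500 UMIs.

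The T cell over macrophage ratios without mt- and ribosomal protein genes were 0.288 and 0.281 for the nuclear-coded sum (responder, then non-responder) and -0.203 and -0.096 for the mitochondrially coded sum. The responder mitochondrial ratio was -0.449 as a mean over cells and -0.473 thinned, and at resolution 0.5 the non-responder ratios were -0.00492 and -0.400, so the small nuclear-coded excess there was lost. The cluster spreads of nuclear-coded and mitochondrially coded sums were 0.231 and 0.401 (responder) and 0.337 and 0.455 (non-responder) at resolution 0.5, and 0.311, 0.668, 0.457 and 0.690 at resolution 2.0. The responder mitochondrial spread was 0.545 without the mitochondrial limit and 0.552 thinned, its nuclear spread 0.302 with the reduced denominator, and the non-responder mitochondrial spread 0.666 as a mean over cells and 0.665 thinned.

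Of the settings added after the data had been seen, counting cluster 0 as macrophage-like gave -0.012 and -0.028 for the sums, and leaving out clusters 6, 8 and 10 gave 0.00656 and -0.067 with 5 members lower. Removing cells over 30000 UMIs (12 responder and 23 non-responder) and counting L3 as T cell-like moved no sum or count beyond its interval or 1.5-fold. Over the 12 other settings Cox4i2 ranged from 0.95 to 1.76, Uqcrfs1 from 0.73 to 0.98, Ndufa4 from -1.24 to -0.76, Cox6b2 from -1.57 to -0.76, Cox5a from 0.48 to 0.67 and Atp5s from -1.55 to -0.45, so Atp5s, with few UMIs, did not always pass 1.5-fold. The causes of these shifts were not tested.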
